A study of Mus musculus with 34 samples.

Results

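The RNA polymerase III structural RNAs examined here are 7 mouse genes chosen by symbol from a list set for this work with earlier results of these data known, though not by a cut on measured values: Rn7s1 and Rn7s2 (7SL RNA), Rn7sk (7SK RNA), Rmrp, Rpph1, Rny1 and Rny3. They matched 8 of the 54532 gene rows of the bulk RNA-seq table, because Rmrp is annotated on a pair of overlapping rows. 5 of the 7 genes carried counts, and Rny1 and Rny3 were at 0 in every library. The bulk experiment is 8 of the 34 samples of the series. The others, which used spatial arrays and single nuclei, are not analysed here.

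The libraries came from whole dorsal hippocampus of adult male C57BL/6J mice, 1 library per mouse. The groups compared were homecage (n = 4) and SOR (n = 4). The SOR mice were trained in spatial object recognition, a task in which objects are explored at fixed places in an arena, and were killed 1 hour after the last training trial. Homecage mice stayed in their cages and were killed at the same time of day. All mice were handled and housed alone beforehand, and neither group carried a transgene, a deletion or a drug. The tissue is a mixture of neurons and glia: Neurod6 and Prox1, markers of hippocampal excitatory and granule neurons, had medians of 237 and 107 CPM (counts per 1000000, scaled by upper quartile), Wfs1, which marks CA1 neurons, had 56.5 CPM, and Gfap and Mbp, markers of astrocytes and oligodendrocytes, had 314 and 2188 CPM. In such bulk tissue fewer cells of a type and less RNA per cell cannot be told apart. Total estimated counts ranged from 51406011 to 81525977 per library.

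RNA polymerase III makes short, highly structured RNAs, most of which act inside protein-RNA particles and none of which receives the poly(A) tail that RNA polymerase II gives to messenger RNA. It ends transcription at a run of T on the coding strand. 7SL RNA is the scaffold of the signal recognition particle, which halts ribosomes making secreted and membrane proteins and docks them at the endoplasmic reticulum. 7SK RNA holds the kinase P-TEFb inactive and so restrains elongation by RNA polymerase II. Rpph1 is the catalytic RNA of RNase P, which trims the 5′ end of transfer RNA precursors, and Rmrp is the RNA of RNase MRP, which cuts ribosomal RNA precursors. Rny1 and Rny3 are Y RNAs, which bind the Ro60 and La proteins.

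The sequences of the RNAs set what the table could separate, so what matters for reading the counts is given first, from the GRCm38 genome, the build (mm10) of the deposited data. Rn7s1 (chr12:69159295-69159594, plus strand) and Rn7s2 (chr12:69361182-69361481, minus strand) lie 201587 bases apart and were identical at 300 of 300 bases. A further 7SL copy that is not a member, Rn7s6 (chr6:69516339-69516629, plus strand, 291 bases), was added after its counts were seen. The longest exact stretch that it shares with them is 173 bases, from base 42 to base 214 of each. No read within the transcript could tell Rn7s1 from Rn7s2, and reads inside the shared stretch could not tell either from Rn7s6. The estimated counts of Rn7s1 and Rn7s2 differed by 27.2 to 219 counts in libraries where each held at least 2222205 counts. Their split is therefore the estimator's, and both were summed as 7SL RNA below.

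The Y RNA genes are neighbours on chromosome 6, on opposite strands with 6343 bases between them. Rny3 is at chr6:47781624-47781725 (plus strand, 102 bases) and Rny1 at chr6:47788069-47788180 (minus strand, 112 bases). Their transcripts are shown because they are the shortest members and the ones without counts. Capitals mark the last run of T.
Rny1: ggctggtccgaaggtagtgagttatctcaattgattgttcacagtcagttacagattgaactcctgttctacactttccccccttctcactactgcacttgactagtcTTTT
Rny3: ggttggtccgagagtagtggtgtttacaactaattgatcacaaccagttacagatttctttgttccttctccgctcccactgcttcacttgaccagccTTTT

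Rn7sk (chr9:78175303-78175633, minus strand, 331 bases) overlaps no other annotated gene. Rpph1 (chr14:50807449-50807767, minus strand, 319 bases) overlaps the same-strand protein-coding gene Ccnb1ip1, whose highest count was 41.0. The Rmrp rows, a ribozyme of 271 bases (chr4:43492788-43493058, minus strand) and a lincRNA of 281 bases (chr4:43492783-43493063, minus strand), cover the same locus, which also overlaps Ccdc107 on the opposite strand. The 3′ ends of Rn7sk, Rmrp and Rpph1 are shown from 20 bases before the annotated end to 16 bases after it, with the first run of 4 or more T near the end in capitals.
Rn7sk: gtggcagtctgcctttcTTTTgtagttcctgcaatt
Rmrp: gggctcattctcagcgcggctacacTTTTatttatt
Rpph1: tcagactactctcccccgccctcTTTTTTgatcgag
All 7 genes had a run of 4 to 6 T between the last 4 bases and the next 16, which 18.3% of 21905 protein-coding gene ends had. The polyadenylation signal AATAAA, searched on the gene's strand in the last 40 bases, was in 0 of the 7 and in 57.1% of the protein-coding gene ends. The longest run of A inside any member was 2 to 4 bases. Bc1, a neuronal RNA also made by RNA polymerase III that served as a comparator, has a run of 23, in capitals here (chr7:144914470-144914637, plus strand, 168 bases).
Bc1: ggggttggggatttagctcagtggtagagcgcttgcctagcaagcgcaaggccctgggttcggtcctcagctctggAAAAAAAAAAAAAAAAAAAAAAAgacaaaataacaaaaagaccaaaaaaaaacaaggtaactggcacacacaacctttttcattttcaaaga

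The 80 bases upstream of each member are given as a description. Any link between them and the relations of the members from mouse to mouse, described further down, was not tested. Capitals mark TATA, TCACC and TGACGTCA, searched on both strands, letters that were chosen after the windows had been read. Positions are counted back from the annotated start.
Rn7s1: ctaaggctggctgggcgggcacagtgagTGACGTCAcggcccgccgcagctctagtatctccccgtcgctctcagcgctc
Rn7s2: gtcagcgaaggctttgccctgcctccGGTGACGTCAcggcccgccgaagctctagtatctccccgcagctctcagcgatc
Rn7sk: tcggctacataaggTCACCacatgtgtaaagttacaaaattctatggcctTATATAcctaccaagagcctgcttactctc
Rmrp: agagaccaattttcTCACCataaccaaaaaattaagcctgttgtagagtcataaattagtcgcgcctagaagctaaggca
Rpph1: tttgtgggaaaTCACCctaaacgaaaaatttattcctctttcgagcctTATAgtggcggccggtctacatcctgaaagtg
Rny1: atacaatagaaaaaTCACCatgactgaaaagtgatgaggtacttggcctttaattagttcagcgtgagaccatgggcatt
Rny3: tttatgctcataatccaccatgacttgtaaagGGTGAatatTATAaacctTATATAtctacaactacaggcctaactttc
The 7SL genes, identical as transcripts, matched at only 54 of these 80 bases. Both held TGACGTCA at -52, a sequence found in 0.992% of 32851 RefSeq promoter windows of the same length (GRCm38). In Rn7s2 a reverse-strand TCACC overlaps it. TCACC stood at -66 in Rn7sk, Rmrp and Rny1 and at -69 in Rpph1, and in reverse at -48 in Rny3, and 14.6% of the RefSeq windows held it on either strand. TATA began at -30 in Rn7sk, at -32 in Rpph1 and first at -39 in Rny3, and 13% of the windows held it. Rn7s1, Rn7s2, Rmrp and Rny1 had no exact TATA in this window. These matches describe the letters only.

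Together the members took 10.2% to 15.0% of all counts in a library, with a mean of 12.4% ± 1.59 (SD, n = 8). The share was 15.0% in homecage replicate 1, 11.9% in replicate 2, 10.2% in replicate 3 and 13.1% in replicate 4. In SOR mice it was 10.2% in replicate 1, 13.2% in replicate 2, 12.8% in replicate 3 and 12.4% in replicate 4. Each group held one of the 2 libraries with the lowest share, and the groups overlapped. Counting error was small beside this, with 95% Wilson half-widths of at most 0.0094 percentage points, which cover counting error only.

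**Figure D1:**
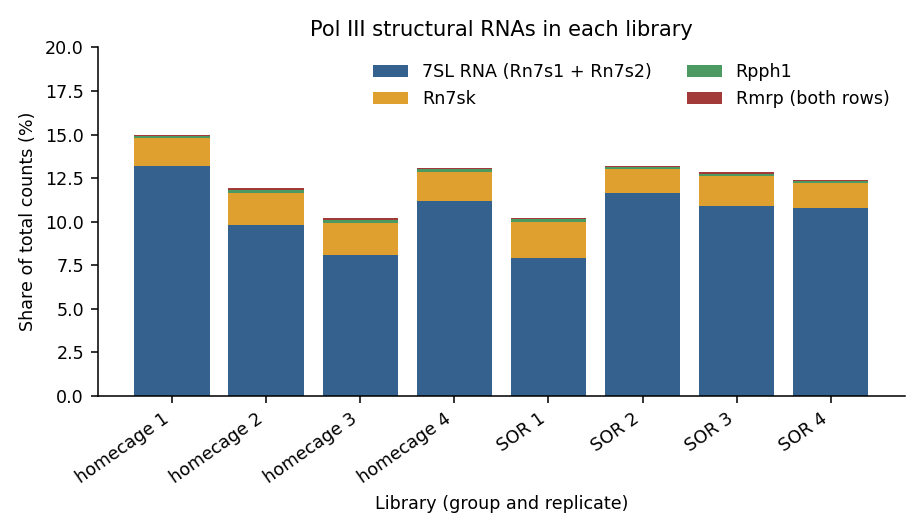
Stacked bars of the share of total counts (%) taken by 7SL RNA, Rn7sk, Rpph1 and Rmrp in each of the 8 libraries, named by group and replicate. 7SL RNA makes up most of every bar, which end between 10.2% in homecage replicate 3 and 15.0% in homecage replicate 1; Rny1 and Rny3 are at 0 and are not drawn.

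7SL RNA was the most abundant product in the table. Rn7s1 and Rn7s2 ranked 1 and 2 of all rows of the table by mean count, and their sum held 10.4% ± 1.78 of counts (n = 8). In homecage mice the sum was 13.2% of counts in replicate 1, 9.80% in replicate 2, 8.09% in replicate 3 and 11.2% in replicate 4. In SOR mice it was 7.92% in replicate 1, 11.6% in replicate 2, 10.9% in replicate 3 and 10.8% in replicate 4. The highest and the lowest library, homecage replicate 1 and SOR replicate 1, differed 1.67-fold. Rn7s6 held 1.12% to 1.43% and, with the 5 misc_RNA member rows, made up 99.99% of the counts of the misc_RNA class.

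Rn7sk, the P-TEFb inhibitor RNA, ranked 4 and held 1.70% ± 0.222 of counts (n = 8). Its share was 1.61% in homecage replicate 1, 1.86% in replicate 2, 1.86% in replicate 3 and 1.69% in replicate 4. In SOR mice it was 2.06% in replicate 1, 1.41% in replicate 2, 1.71% in replicate 3 and 1.43% in replicate 4. The SOR libraries bracketed all homecage libraries, so that the highest and the 2 lowest values were SOR.

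Rpph1, the RNase P RNA, ranked 38 and held 0.143% ± 0.0262 of counts (n = 8). It took 0.114% in homecage replicate 1, 0.169% in replicate 2, 0.159% in replicate 3 and 0.144% in replicate 4. In SOR mice it took 0.180% in replicate 1, 0.103% in replicate 2, 0.141% in replicate 3 and 0.135% in replicate 4. Here too the extremes were SOR libraries, replicate 1 at the top and replicate 2 at the bottom.

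Rmrp was the least abundant member that carried counts, with 0.0741% ± 0.00734 over both rows (n = 8). The sum took 0.0597% of counts in homecage replicate 1, 0.0750% in replicate 2, 0.0841% in replicate 3 and 0.0724% in replicate 4. In SOR mice it took 0.0808% in replicate 1, 0.0718% in replicate 2, 0.0774% in replicate 3 and 0.0719% in replicate 4. The lowest and the highest library were both homecage. The lincRNA row held 0.948 to 1.19 times the counts of the ribozyme row, a division that overlapping annotation of one locus leaves uncertain.

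Rny1 and Rny3 were at 0 in all 8 libraries. With 3 counts as the limit that a count of 0 allows, this bounds what was counted of each at 0.0368 to 0.0584 CPM of total counts per library. It does not bound their level in the tissue. The same was true of every gene of their length: 0 of the 3934 genes whose longest transcript is no longer than Rny1 had a count, and the shortest gene with any count measured 127 bases. Of genes of 121 to 140 bases 13.3% had a count, of those of 201 to 300 bases 35.1%, and of those above 1000 bases 87.6%. Of the other RNA polymerase III products in the comparator list, 5S ribosomal RNA (Rn5s, n-R5s25 and n-R5s211, 119 bases) and U6 RNA (Rnu6, 107 bases) were at 0 as well, Vaultrc5, of 143 bases, held at most 4.5e-06% of counts, and Bc1 was detected in every library. Whether the Y RNAs are expressed in this tissue cannot be read from a table in which no transcript of their length has counts.

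**Figure D2:**
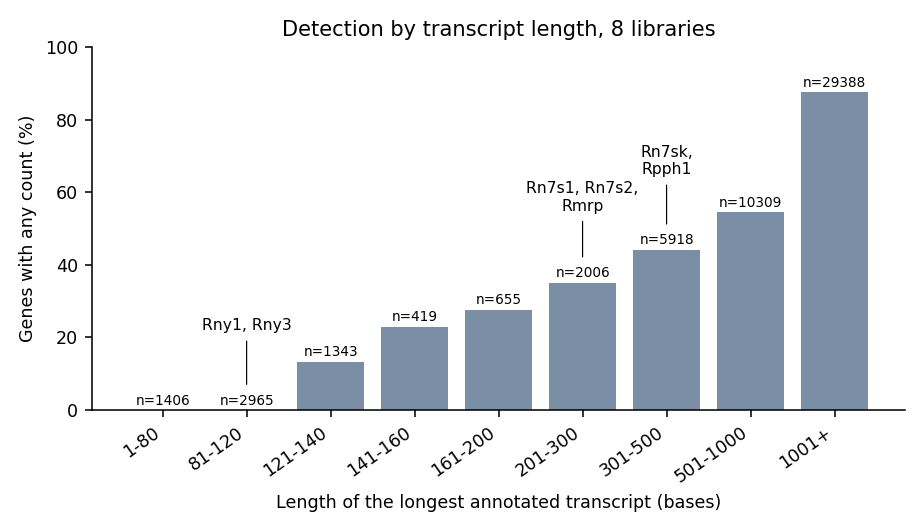
Bars give the percentage of genes with any count in the 8 libraries (vertical axis) in 9 classes of the length of their longest annotated transcript in bases (horizontal axis), with the number of genes above each bar. Both classes up to 120 bases, where Rny1 and Rny3 fall, are at 0, and the other members fall in the classes with 35.1% and 44.2%.

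Per length, the order of the members was the same in all 8 libraries. As CPM of total counts per kilobase of transcript, 7SL RNA reached 347868 ± 59321 (SD, n = 8), Rn7sk 51475 ± 6715, Rpph1 4487 ± 820 and Rmrp, over its longer row, 2638 ± 261. No neighbours in this order overlapped: the lowest 7SL value was 263932 against the highest Rn7sk value of 62300, the lowest Rn7sk value was 42743 against the highest Rpph1 value of 5645, and the lowest Rpph1 value was 3242 against the highest Rmrp value of 2992. Within a library 7SL RNA stood 4.24 to 9.07 times above Rn7sk, Rn7sk 10.2 to 13.6 times above Rpph1, and Rpph1 1.27 to 1.98 times above Rmrp. The ratio of 7SL RNA to Rn7sk thus varied the most, with its extremes in SOR replicates 1 and 2. On the same scale Bc1 had a median of 1290, the nuclear RNA Malat1 1635 and Actb, the cytoplasmic actin messenger, 978. The share of genes with any count changed with length in this table, and whether the recovery of fragments did was not tested. The levels per length therefore compare only what was sequenced.

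**Figure D3:**
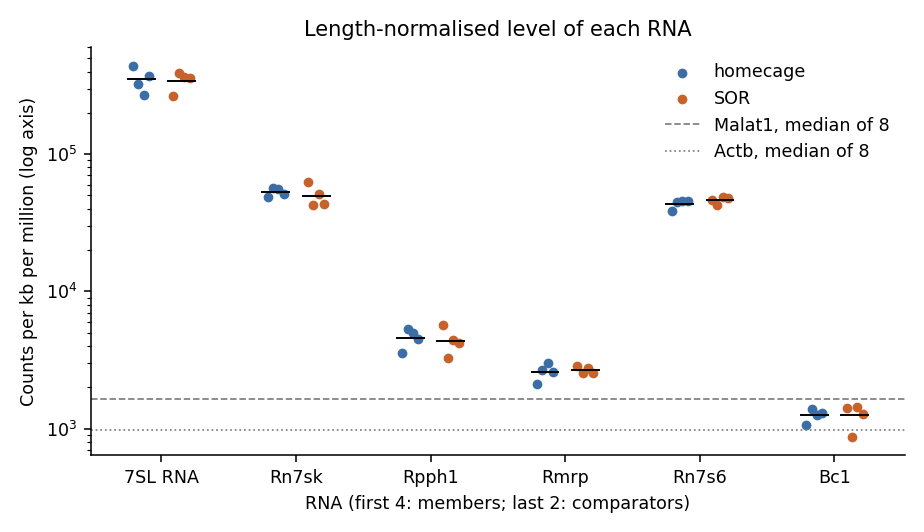
Each point is 1 library (blue homecage, orange SOR) and each short line a group mean of 4, in CPM of total counts per kilobase on a log axis, for the 4 member RNAs with counts and for the comparators Rn7s6 and Bc1. The 4 members fall into bands that do not overlap, from 7SL RNA (263932 to 439835) down to Rmrp (2124 to 2992), all above the medians of Malat1 and Actb drawn as lines.

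These shares bear on the type of library, on which the sources differ. The sample labels give the molecule as polyA RNA, whereas the extraction protocol and the methods name a Ribo-Zero Gold kit, which depletes ribosomal RNA from total RNA without selecting poly(A) tails. The members, none of which has an AATAAA near its end, held 10.2% to 15.0% of counts. 8 abundant polyadenylated reference transcripts (among them Actb at 0.169% to 0.210%) together held 1.15% to 1.24%. Malat1, first listed with them, held 1.09% to 1.23% and is set apart because RNase P forms its 3′ end and leaves no poly(A) tail. RNAs of RNA polymerase II that lack a poly(A) tail were also counted: Scarna10, a Cajal body RNA, held 0.0125% to 0.0180%, and 19 of 26 rows of that list had a count, among them guide RNAs, Terc, Rnu12 and histone genes. Some of these were barely counted: Terc held at most 4.48e-05%, and Rnu12 at most 4.56e-06% with a median of 0. The share of all genes with any count differed by length, as given above. The longest annotated transcripts of the histone genes run from 470 to 1930 bases, and tailed and tailless forms were not separated. Of the ribosomal RNA rows, CT010467.1 held 0.0115% to 0.0157%, Gm42418 0.00751% to 0.0110%, Gm26917 0.0974% to 0.112%, and the mitochondrial mt-Rnr1 and mt-Rnr2 0.169% to 0.208% and 2.03% to 2.45%, and AY036118 was at 0. No library prepared by poly(A) selection was compared, so the share that the members would take in one was not tested.

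SOR training was then compared with the homecage state 1 hour after training. No member RNA passed the test for a rise or a fall. In edgeR's quasi-likelihood test, adjusted by Benjamini-Hochberg over the whole set of 22018 tested genes, 0 of the 6 member rows that could be tested passed an adjusted p of 0.05 with a fold change above 1.4, a mark that 0.173% of all genes reached. At an adjusted p of 0.05 alone the count was also 0, against 0.309% of all genes, and 0 member rows had an unadjusted p under 0.05. DESeq2 called 0 as well. Rny1 and Rny3 had no counts to test.

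The sum of Rn7s1 and Rn7s2 held 10.6% ± 2.16 of counts in homecage mice and 10.3% ± 1.64 in SOR mice. The log2 fold change was -0.04 (SE 0.16, edgeR adjusted p = 0.960), with a 95% interval from -0.40 to 0.31, that is 0.760-fold to 1.24-fold. The sign of this value rested on single mice, since it was 0.087 without homecage replicate 1 and 0.075 without SOR replicate 1. An exact two-sided permutation test of log2 CPM gave p = 0.829, where 4 mice against 4 can give no less than 0.0286.

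Rn7sk held 1.75% ± 0.127 in homecage mice and 1.65% ± 0.304 in SOR mice, with a log2 fold change of -0.10 (SE 0.10, edgeR adjusted p = 0.810; exact permutation p = 0.4). Rpph1 held 0.146% ± 0.0240 and 0.140% ± 0.0314, with a log2 fold change of -0.08 (SE 0.15, edgeR adjusted p = 0.906; exact permutation p = 0.629), whose sign turned to 0.038 without SOR replicate 2. The summed rows of Rmrp held 0.0728% ± 0.0101 and 0.0755% ± 0.00444, with a log2 fold change of 0.05 (SE 0.08, edgeR adjusted p = 0.900; exact permutation p = 0.743), which was -0.035 without homecage replicate 1. All of these differences were smaller than the spread between mice, and the CPM of the groups overlapped for all 6 rows (6.94% of all genes did not overlap). Every 95% interval lay within 0.754-fold to 1.24-fold, short of a 1.4-fold change either way.

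**Figure D4:**
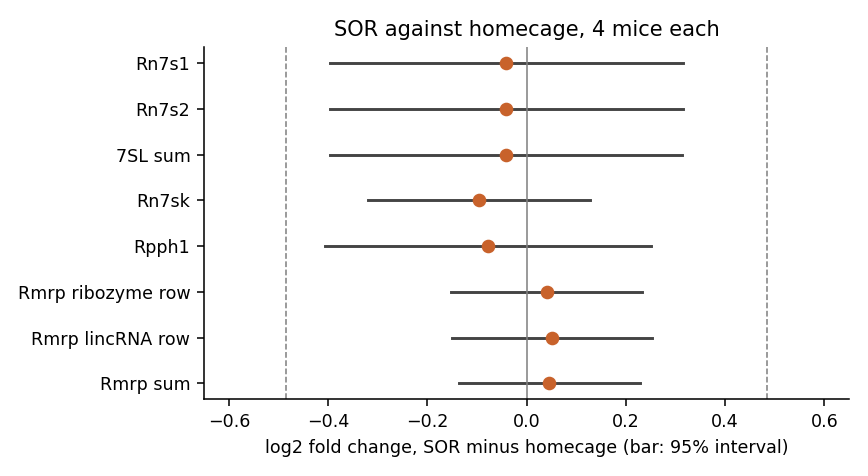
Points give the log2 fold change, SOR minus homecage (4 mice each), of the 6 tested member rows and of the 7SL and Rmrp sums, with bars for the 95% interval and dashed lines at a 1.4-fold change. All 8 bars cross 0 and stay inside the dashed lines.

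The proteins that make these RNAs or act with them were examined as 6 lists of 68 tested genes. 0 of the 68 passed the adjusted p of 0.05 in either direction in edgeR's quasi-likelihood test or its likelihood ratio test, and 9 had an unadjusted p under 0.05 (13.2%, against 10.1% of all genes). DESeq2 gave 2 of them an adjusted p below 0.05, neither with a 1.4-fold change: Polr3e (log2 fold change 0.23, DESeq2 adjusted p = 0.00402) and Gtf3c4 (0.16, DESeq2 adjusted p = 0.00822). The median log2 fold change of the 68 was -0.01, beside -0.02 for all genes. Of the 68 values 31 were positive (45.6%, against 43.8% of all genes).

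Of the 18 subunits of RNA polymerase III 0 passed the test (median log2 fold change 0.01). Polr3e had the highest value, 0.21 (SE 0.05, adjusted p = 0.193), from 24.6 CPM ± 0.515 in the homecage group to 28.5 CPM ± 1.5 after SOR. Of the 19 transcription factors in the next list, which includes the repressor Maf1, 0 passed (median 0.01), with the extremes in Gtf3c4, a subunit of the factor TFIIIC that binds promoters inside genes (0.14, adjusted p = 0.213), and Zfp143, an activator that binds upstream (-0.18, adjusted p = 0.514).

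The 10 proteins of the signal recognition particle and its receptor, partners of 7SL RNA, had values from -0.08 (Srp54b) to 0.12 (Srpr, a receptor subunit), a median of -0.01 and no adjusted p below 0.510. The 7 proteins of the 7SK particle and P-TEFb ranged from -0.15 for Mepce, which caps 7SK RNA, to 0.22 for Ccnt2, a cyclin of P-TEFb (adjusted p = 0.400), with a median of -0.05. The 12 proteins of RNase P and RNase MRP ranged from -0.26 for Pop7 (adjusted p = 0.374) to 0.11 for Rpp25l, with a median of -0.03. Trove2, which encodes Ro60, had 0.04 and Ssb, which encodes La, had -0.06. Both Y RNA partners were expressed, Trove2 at 100.1 ± 3.23 CPM and Ssb at 125 ± 1.25 CPM in homecage mice.

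Among the comparator RNAs, Bc1 had a log2 fold change of -0.02 (adjusted p = 0.981). Of the RNA polymerase II products without a poly(A) tail 0 of 18 tested rows passed, with the extremes in the telomerase RNA Terc (0.43, adjusted p = 0.731) and Hist1h1e, a linker histone gene (-0.23, adjusted p = 0.335). Of the 5 ribosomal rows 0 passed, from mt-Rnr1 at -0.09 to Gm42418 at 0.23 (adjusted p = 0.173). Of the 8 polyadenylated reference transcripts 0 passed, from Tubb3 at -0.05 to Camk2a at 0.07. Malat1 had 0.09 (adjusted p = 0.540).

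Within each group the members varied between mice more than most genes that average 100 CPM or more, a set not matched to their abundance. The coefficient of variation of CPM within groups was 19.6% for 7SL RNA, 18.2% for Rpph1, 12.0% for Rn7sk and 9.41% for summed Rmrp. The median of the 1847 genes that averaged 100 CPM or more was 4.63%, and 99.2%, 98.9%, 96.9% and 92.0% of these genes, in the same order, varied less. Rn7s6, whose reads inside the shared stretch could not be told from those of 7SL RNA, varied by 7.10%, and Bc1 by 16.2%.

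This variation went in opposite directions for 7SL RNA and the others. Over the 8 libraries, log2 CPM of 7SL RNA and of Rmrp had Pearson's r = -0.79 (exact permutation p = 0.00818, adjusted over 6 pairs 0.0294) and Spearman's rho = -0.79 (exact permutation p = 0.0279, adjusted 0.0441). Without the 2 libraries farthest from the median of 7SL RNA r was -0.82. For 7SL RNA and Rpph1, r was -0.78 (exact permutation p = 0.0245, adjusted 0.0490) and rho -0.86 (exact permutation p = 0.0107, adjusted 0.0321), with r = -0.80 without the 2 farthest libraries. For 7SL RNA and Rn7sk, r was -0.71 (exact permutation p = 0.0491, adjusted 0.0736) and rho -0.76 (exact permutation p = 0.0368, adjusted 0.0441). This pair fell to r = -0.41 without the 2 farthest libraries, so its strength depended on them. Without any single library its r lay between -0.77 and -0.55, the weakest without SOR replicate 1.

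Rn7sk and Rpph1, by contrast, ranked the mice nearly alike, with r = 0.85 (exact permutation p = 0.00980, adjusted 0.0294), rho = 0.98 (exact permutation p = 0.000397, adjusted 0.00238) and r = 0.94 without the 2 libraries farthest from the median of Rn7sk. Rmrp and Rpph1 had r = 0.64 (exact permutation p = 0.0838, adjusted 0.101) and rho = 0.76 (exact permutation p = 0.0368, adjusted 0.0441), with r = 0.66 without the 2 farthest libraries. Rn7sk and Rmrp had r = 0.45 (exact permutation p = 0.280, adjusted 0.280) and rho = 0.74 (exact permutation p = 0.0458, adjusted 0.0458), with r = 0.67 without the 2 farthest libraries. After group means were subtracted, r was -0.78, -0.79 and -0.81 for 7SL RNA with Rn7sk, Rmrp and Rpph1 and 0.85 for Rn7sk with Rpph1, so the relations lay within the groups. The labels give no sequencing batch or date, so values within batches could not be given.

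Library properties that could move with these relations were measured beside them. The counts outside 7SL RNA made up 86.8% to 92.1% of a library, a range of 1.06-fold. As shares of all counts, Rn7sk varied 1.46-fold and Rpph1 1.74-fold. The relations above were computed on log2 CPM scaled by upper quartile, not on shares. On log2 shares of all counts, r of 7SL RNA was -0.75 with Rn7sk, -0.88 with Rmrp and -0.83 with Rpph1. On the same values r was 0.87 for Rn7sk with Rpph1, 0.70 for Rmrp with Rpph1 and 0.55 for Rn7sk with Rmrp. The part of the share taken by 7SL RNA in these relations was not tested. With total counts, r was 0.64 for Rn7sk (exact permutation p = 0.0994), 0.56 for Rpph1 (exact permutation p = 0.156), 0.28 for Rmrp (exact permutation p = 0.565) and -0.18 for 7SL RNA (exact permutation p = 0.650), and the part of depth in the relations between members was not tested. No measure of RNA integrity was used here, and its part was not tested.

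**Figure D5:**
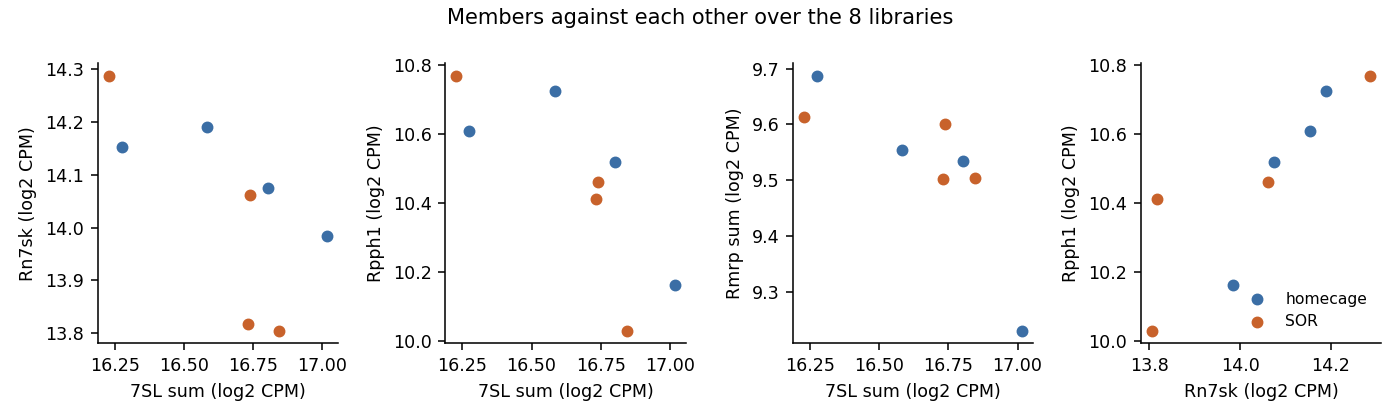
Each point is 1 library (blue homecage, orange SOR), plotted by log2 CPM of 7SL RNA against Rn7sk, Rpph1 and summed Rmrp, and of Rn7sk against Rpph1. The first 3 panels slope down (r = -0.71, -0.78 and -0.79) and the last slopes up (r = 0.85), with both groups spread along each.

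Of 16349 other genes averaging 1 CPM or more, those whose log2 CPM ran most like 7SL RNA over the 8 libraries were Gm44027 (r = 0.95), Gipc1 (r = 0.95), Ppm1k (r = 0.94), Gad2 (r = 0.93) and Doc2g (r = 0.93). Their own ranges were narrower for some, such as 115 to 125 CPM for Ppm1k, and Gad2, the GABA-synthesis enzyme of inhibitory neurons, ran from 91.5 to 121 CPM. The genes nearest to Rn7sk were Coa7 (r = 0.96), Timm10b (r = 0.96), Rnf17 (r = 0.95), and Fam205a4 and Fam205a2, which had the same values (r = 0.94). These are the top of a ranking of all these genes over 8 points from the same libraries and are given as a description. 8 RNAs were looked up afterwards. With Rn7sk, r was 0.93 for Scarna10, 0.90 for Snora74a, 0.76 for Scarna13, 0.65 for Bc1, 0.38 for Scarna2, 0.16 for mt-Rnr2, 0.06 for Rn7s6 and -0.24 for Actb. With 7SL RNA, r was -0.72 for Scarna2, -0.71 for Scarna13, -0.62 for Snora74a, -0.51 for Scarna10, -0.45 for Bc1, -0.28 for Rn7s6, -0.15 for mt-Rnr2 and -0.09 for Actb. All 8 of these had a negative r with 7SL RNA, with nuclear RNAs made by RNA polymerase II and Actb among them. They were not a test of any class of RNA. Reads of Rn7s6 inside the shared stretch could not be told from those of 7SL RNA.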

How the data were processed

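RNA was sequenced from dorsal hippocampus of 8 mice as 150-base paired ends; the protocol and methods name ribosomal depletion, and the labels' molecule field polyA RNA. The authors deposited estimated counts per Ensembl gene, imported by tximport; the quantifier behind them and any abundance scaling are not given in the sources used here, and 1.99% of the non-zero values (0.895% to 5.64% by library) were whole within 1e-06. The methods name STAR and featureCounts for the bulk data and mm10 is the labelled build. Symbols, types and positions came from GENCODE M21 (54495 of 54532 rows matched), and 0 columns belonged to no sample.

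Counts were rounded, filtered by filterByExpr, scaled by upper quartile and tested with edgeR 4.0.16 (glmQLFit, glmQLFTest; R 4.3.3), with SOR and homecage as the groups. A gene was called where its fold change exceeded 1.4 at an adjusted p below 0.05. On simulated counts for this comparison, 43 of 50 genes changed 3-fold, 41 of 50 changed 2-fold, 24 of 50 changed 1.5-fold and 33 of 50 lowered to 0.5-fold were recovered among 22018, with 5 false calls. Shares are percentages of all counts of a library. Single values were tested over all 70 assignments of 4 mice to 4, and pairs of members over all 40320 pairings. Replicates differed by a chi-square of 12.0 or more per degree of freedom, so none was a duplicate. The members and lists were chosen with earlier results of these data known. Named genes were all members, the tested gene of highest and of lowest fold change in each list, any called list gene, comparators by share, and the 5 genes most correlated with 7SL RNA and with Rn7sk. Alternatives were scaling by library size, TMM or RLE, other filters, the likelihood ratio test, DESeq2 1.42.0, 1 RUVs factor, a replicate block, unrounded counts and leaving out each mouse. Summing the Rmrp rows was added after seeing the data. Sequences were read from GRCm38 with pysam 0.24.0, and 0 members had a row in the RefSeq promoter table, which served for the background windows. Some items that this rule or the sequence descriptions would name are not reported here.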

Additional observations from a re-analysis of the deposited data

Results flagged for a closer look

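The lincRNA row of Rmrp stood at 292 CPM in homecage replicate 1, far below the other 3 homecage libraries, which lay between 393 and 404 CPM. The gap was 0.902 of the group's range. Chance sets a value apart in this way in about 1 in 20 groups, and 16 groups were looked at. The same library was also the lowest for the ribozyme row of Rmrp (308 CPM) and the highest for 7SL RNA (13.2% of counts).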

How the results depend on the processing

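No member was called under any of the 19 alternatives, and no gene of the 6 protein lists passed both limits under any; at an adjusted p of 0.05 alone DESeq2 passed 2 of these genes and the others 0. The log2 fold change of the 7SL sum ranged from -0.16 to 0.087 as each mouse was left out, with the sign turned without homecage replicate 1 (0.087) and without SOR replicate 1 (0.075). The same ranges were -0.16 to 0.087 for Rn7s1 and for Rn7s2, -0.21 to 0.038 for Rpph1, -0.046 to 0.095 for the lincRNA row of Rmrp, -0.023 to 0.13 for its ribozyme row and -0.035 to 0.11 for their sum, while Rn7sk kept its sign (-0.20 to -0.035). Adjusted p for the 7SL sum lay between 0.841 and 0.996. Over all genes, 38 were called, against 105 by the likelihood ratio test, 114 by DESeq2, 134 by the likelihood ratio test with 1 RUVs factor and 22 to 38 without single mice, the lowest count without homecage replicate 2. Relative to protein-coding counts alone the mean share of the members was 15.7% in place of 12.4%, and without single mice it was 12.0% to 12.7%. By Pearson's r, 3 pairs of members passed an adjusted p of 0.05, against 4 with library size scaling and 4 with deviations from the group means. By Spearman's rho these counts were 6, 6 and 5.

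Homecage and SOR mice share replicate numbers, but same-numbered mice did not deviate together (r from -0.08 to 0.07), so the numbers were not taken as pairs. With the replicate block the 7SL sum had a log2 fold change of -0.03, 0 members and 30 genes in all were called.

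Counting error was small beside the range of the members' share between libraries, as given above. Whether depth had a part in the values of the abundant members was not tested. The tests of SOR against homecage set the difference between groups against the spread between mice. Rny1 and Rny3 could not be tested.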

Other observations

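The lack of counts in short genes reached beyond the Y RNAs. Of 2202 annotated microRNA genes, 94.1% have a longest transcript under 127 bases and 27 had a count; of 1383 small nuclear RNA genes, 79.6% are that short and 94 had a count; and of 51 small Cajal body RNA genes, 15.7% are that short and 23 had a count.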
